A study of Homo sapiens with 2 samples.

Results

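The ubiquitin ligase genes of the RING, TRIM and HECT families were compared between PC3 cells stably overexpressing miR-95 and PC3 cells stably overexpressing a control microRNA. PC3 is an androgen-independent, p53-deficient line from a human prostate cancer metastasis. Each line was grown in serum-containing medium and measured on 1 Affymetrix gene array, and no label says whether a line was a clone or a pool. The comparison asks which ligase transcripts differ when miR-95 is raised. Members were the genes whose platform symbol began with RNF, TRIM or UBR and a number, or that belonged to the MARCH, HERC, HECTD, HECW, NEDD4, ITCH, WWP, CBL, SIAH, MDM, Pellino and TRAF families, with RNF144B and RNF43 left out. This gave 170 genes of the 13864 named on the arrays, each read by 1 probe set. With 1 array per group no value has a replicate error and no test could be made, so "higher" and "lower" describe these 2 arrays alone.

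Ubiquitin ligases are the last enzymes of the cascade that attaches ubiquitin to proteins, and they choose the substrate. RING ligases hold the substrate next to a ubiquitin-loaded E2 enzyme, whereas HECT ligases first take the ubiquitin onto their own catalytic cysteine. TRIM proteins carry a RING followed by B-box and coiled-coil domains, and many act in antiviral defence. N-recognins of the UBR family bind destabilising amino-terminal residues, and TRAF and Pellino proteins carry signals from cytokine and Toll-like receptors. A microRNA lowers messenger RNAs that pair with its seed, and both strands of the miR-95 hairpin are shown for that seed, with bases 2 to 8 in capitals. They come from RefSeq, GRCh38.p14, minus strand, at chr4:8005312-8005333 for the 3p strand and chr4:8005347-8005367 for the 5p strand.
hsa-miR-95-3p: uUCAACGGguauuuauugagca
hsa-miR-95-5p: uCAAUAAAugucuguugaauu
The level of miR-95 was not checked, for want of a probe set with its name, and seed sites in the ligase transcripts were not searched.

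Some members are not ligases. The symbol rule also took 12 genes of other kinds (cerebellins CBLN1 to CBLN4, intrinsic factor CBLIF, TRAF1, the TRAF3-interacting genes TRAF3IP1 and TRAF3IP3, the antisense transcript TRAF3IP2-AS1, MDM1 and the pseudogenes RNF126P1 and RNF216P1) and 3 further noncoding antisense or divergent transcripts. Of these only TRAF3IP1 and RNF216P1 were detected. They were picked out by symbol, and TRIM14 and TRIM29, which have no RING, were not among them. No probe set used here named NEDD4, NEDD4L, HUWE1, STUB1, CBL, MDM2, TRAF2, TRAF6 or RNF2. Detection required that a gene's value on either array reach that array's median over genes, 7.495 for miR-95 and 7.46 for control. By this rule 101 of the 170 members and 7081 of all 13864 genes were detected. Of the 101, 99 passed on both arrays and 2 passed on the control array alone. The epithelial markers KRT8, KRT18, KRT19 and EPCAM were all detected, while KLK2 and KLK3, which are androgen-driven in luminal prostate cells, were below the rule on both arrays, from 6.53 to 6.66. Of the leukocyte and endothelial markers measured, CD14 and VWF were below the rule and CD68, a lysosomal protein also made outside leukocytes, was at 11.56 in miR-95 cells and 11.42 in control cells. No probe set used here named CDH1, PTPRC or a fibroblast marker of the list. In bulk RNA, fewer expressing cells and less RNA per cell cannot be told apart.

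The ligase genes differed little between the lines. Past 1.5-fold, 0 of the 101 detected members were higher and 0 were lower in miR-95 cells, against 0.395% higher and 0.861% lower, together 1.26%, of all detected genes. Past a smaller limit of 0.322 log2 units, 2 members were higher and 4 were lower, together 5.94% of the 101, against 3.08% higher and 5.38% lower, together 8.46%, of all detected genes. All differences are log2 values, miR-95 minus control, with each array first centred on its median over genes, a step that took 0.035 off every difference. The median difference was -0.065 over the detected ligases and -0.035 over all detected genes. Of the ligases, 79 lay within 0.2 of 0, and their range ran from -0.545 to 0.355. Negative differences made up 68.3% of the ligases and 59.4% of all detected genes, but 55.4% and 48.0% in the values as deposited, so the sign counts below turn on the centring. As a guide to measurement disagreement, the probe sets of 1 gene differed by an SD of 0.132 over the 68 detected genes that have several. That guide holds no variation between cultures.

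**Figure D1:**
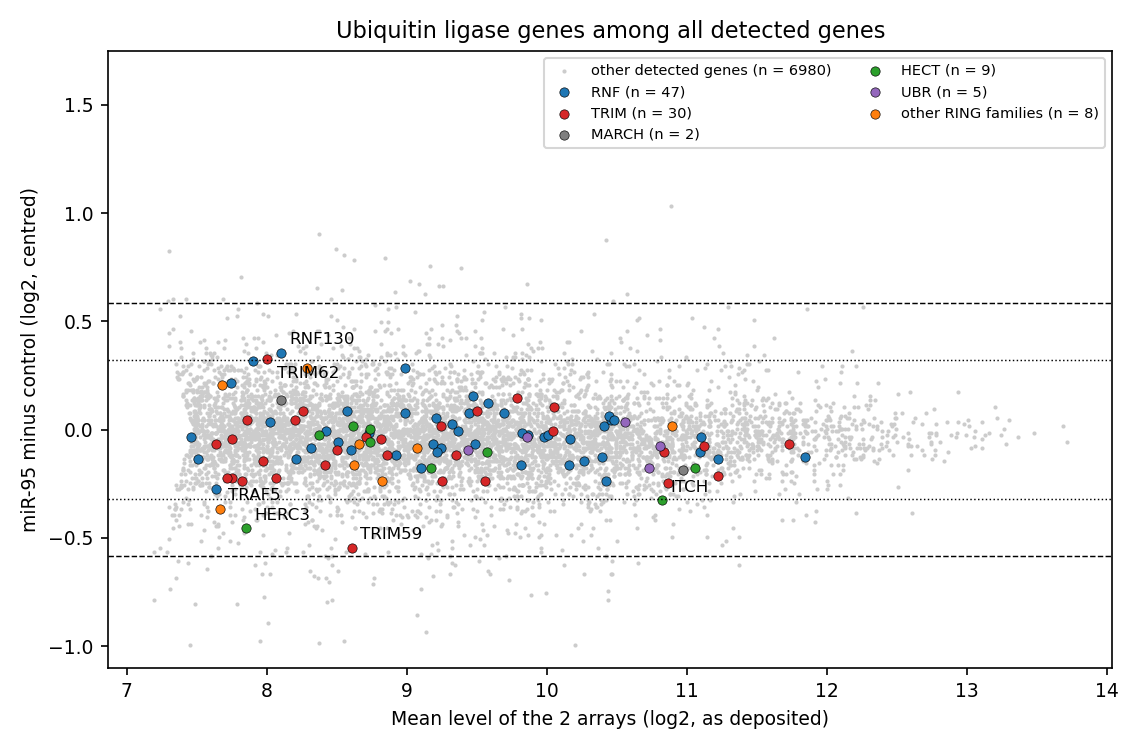
Difference (miR-95 minus control, log2, centred) against the mean level of the 2 arrays (log2, as deposited) for 101 detected ligase genes, coloured by class, over the other detected genes in grey. Dotted and dashed lines mark 0.322 log2 units and 1.5-fold; no ligase gene lies beyond the dashed lines, and the 6 named ones lie beyond the dotted lines.

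TRIM59 had the lowest difference of the detected ligases. This membrane-anchored TRIM protein, linked to tumour cell proliferation, read 8.35 in miR-95 cells and 8.86 in control cells, 1.46-fold lower after centring, and ranked 77th from the lowest of 7081 genes. Its closest detected neighbours in RefSeq gene order went both ways, with the condensin subunit SMC4 at -0.215, the importin KPNA4 at -0.075 and the ciliary gene IFT80 at 0.165. HERC3, a HECT ligase with an RCC1-like domain, followed at 7.64 in miR-95 cells against 8.06 in control cells (1.37-fold lower). TRAF5, an adaptor of TNF receptor family members, read 7.50 against 7.83 (1.29-fold lower), so that its miR-95 value lay just above the detection limit. ITCH, a HECT ligase whose substrates include p63, p73 and JunB, read 10.68 against 10.97 (-0.325), more than 3 log2 units above the detection limit. The other 3 lay closer to that limit in miR-95 cells.

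On the other side stood RNF130, the human relative of the fly ligase Goliath, at 8.30 in miR-95 cells and 7.91 in control cells (1.28-fold higher). TRIM62, a ligase known for its part in epithelial polarity, was at 8.18 against 7.82 (0.325). Both lay within 1 log2 unit of the detection limit. ITCH at -0.325 and TRIM62 at 0.325 lie just past the limit of 0.322, with RNF216P1 at 0.315 just inside it. In the values as deposited ITCH was at -0.29, inside the limit, and RNF216P1 at 0.35, past it, so that 3 members were higher and 3 were lower.

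**Figure D2:**
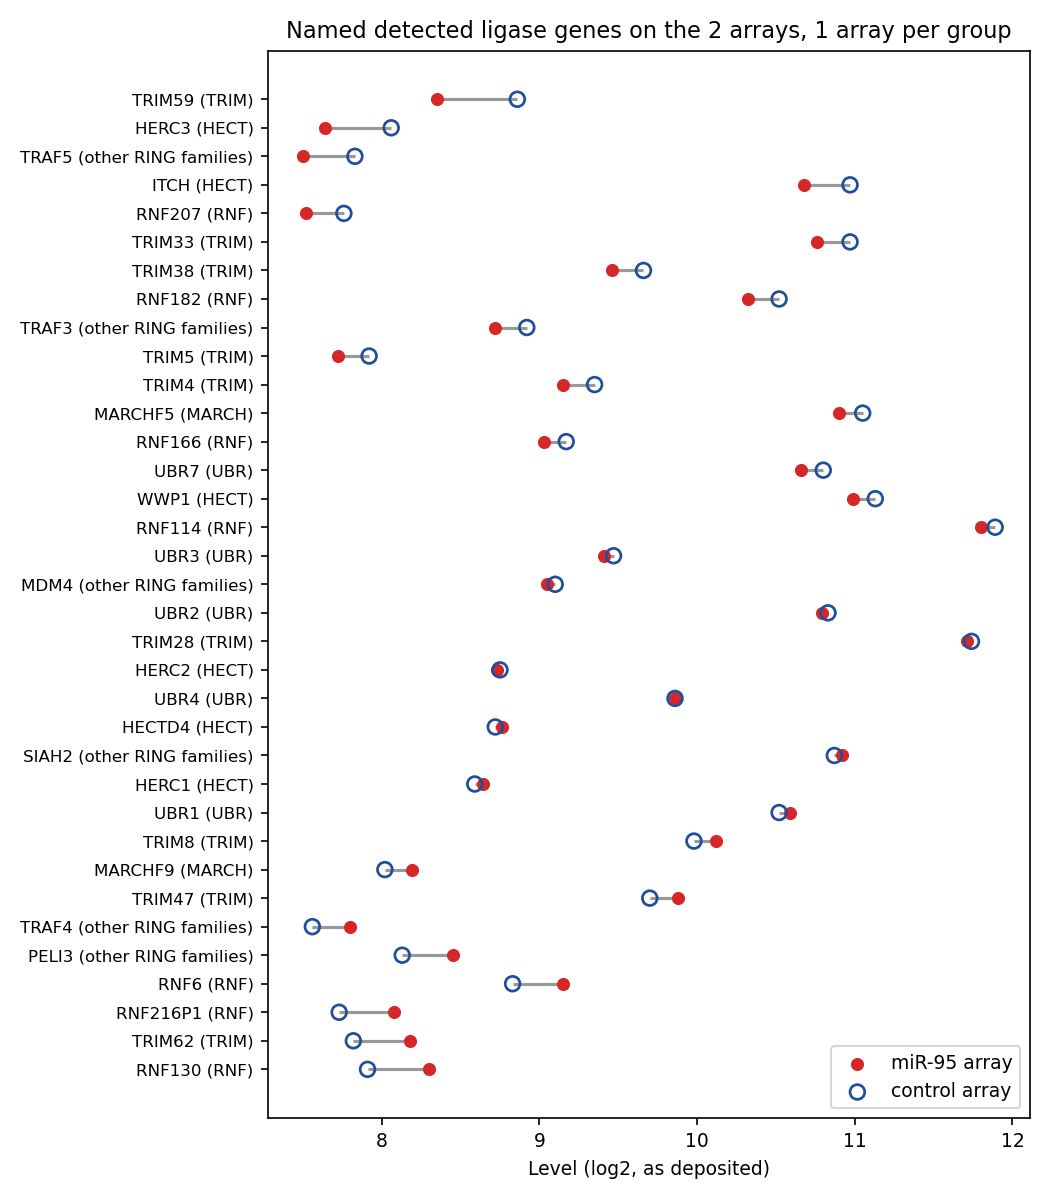
Deposited log2 levels of the named detected ligase genes, ordered from the lowest difference at the top to the highest at the bottom, with miR-95 as filled red points and control as open blue circles, 1 array each. The gap between the arrays is widest for TRIM59 (8.35 and 8.86) and the points coincide for UBR4 (9.86 on both).

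By class, the RNF genes sat where all genes sat. Their 47 detected members had a median of -0.035, from -0.275 to 0.355, with 30 negative and 17 positive. After centring 63.8% were thus negative, against 59.4% of all detected genes. In the values as deposited the split was 21 negative, 23 positive and 3 equal. RNF114, a ligase tied to psoriasis susceptibility, read 11.80 and 11.89. RNF207, a ligase studied in the heart, was lowest at 7.52 in miR-95 cells against 7.76 in control cells (1.21-fold lower). RNF182 (10.32 against 10.52) and RNF166 (9.03 against 9.17) came next. Beside RNF130 the highest were the pseudogene RNF216P1 and RNF6, a ligase of the androgen receptor, which read 9.15 against 8.83 (1.22-fold higher).

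The RNF genes include several families with known roles, chosen here with the values known. Of the PA-TM-RING proteins, membrane ligases of the endosomes, RNF130 was at 0.355, RNF167 at 0.045 (10.52 and 10.44) and RNF13 at -0.105 (11.06 and 11.13), while RNF133, RNF148 and RNF150 were not detected. These 3 detected relatives lay on both sides of 0. The 8 ligases of the endoplasmic reticulum and Golgi membranes all lay between -0.115 and 0.065. They include RNF145 (-0.115) and RNF139 (0.065), both tied to sterol metabolism, RNF170 (-0.005), which turns over inositol trisphosphate receptors, and RNF185 (0.025), of endoplasmic reticulum-associated degradation.

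RBR ligases, which carry a catalytic cysteine like HECT enzymes, were as flat, with 5 detected members from -0.125 (RNF14) to 0.075 (RNF144A). RNF31, the catalytic subunit of the complex that builds linear ubiquitin chains, read 8.06 and 7.99, and its partner RBCK1 read 9.75 and 9.78. The SUMO-targeted ligases RNF4 and RNF111 were at -0.025 and -0.065, and the damage-site protein RNF169 was at -0.165. RNF146, which recognises poly-ADP-ribosylated axin, was at -0.135, and RNF41, which turns over ERBB3, was at -0.045.

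RNF216P1 is a transcribed copy of RNF216, and cross-hybridisation of their probes was not tested. The pseudogene read 8.08 in miR-95 cells and 7.73 in control cells (1.24-fold higher). RNF216 itself, an RBR ligase, read 9.18 and 9.25. The 2 values thus go opposite ways.

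TRIM genes lay somewhat lower than all genes. Their 30 detected members had a median of -0.085, with 22 negative and 8 positive (20, 9 and 1 equal in the values as deposited). That is 73.3% negative after centring, against 59.4% of all detected genes. TRIM59 was the only member lower by more than 0.322, but 8 others lay between -0.245 and -0.215. These were TRIM33, TRIM38, TRIM4, TRIM5, TRIM45, TRIM9, TRIM21 and TRIM44. The edges of that range are the values of TRIM33 and TRIM44 themselves, which ranked 651st and 860th from the lowest of 7081 genes, ties included. The share of all detected genes within it was not counted, so the 8 are no measure of a TRIM trait. TRIM33, which ubiquitinates SMAD4, read 10.76 in miR-95 cells and 10.97 in control cells. Beside TRIM62 the highest TRIM genes were TRIM47 (9.88 and 9.70) and TRIM8, a regulator of cytokine signalling (10.12 and 9.98). TRIM28, the co-repressor of KRAB zinc finger proteins, read 11.71 and 11.74 (-0.065). TRIM24, which like TRIM28 and TRIM33 is a TIF1 family reader of chromatin, was at 0.015, so the 3 relatives ran from -0.245 to 0.015.

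**Figure D3:**
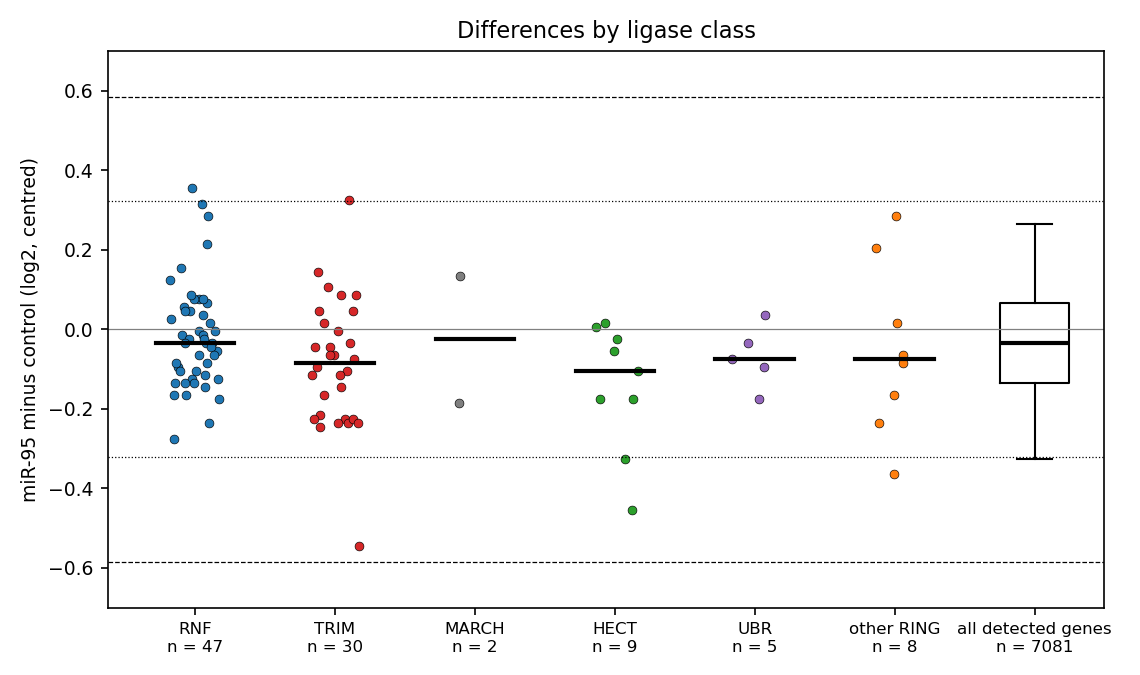
Differences (miR-95 minus control, log2, centred) of detected ligase genes by class, with a bar at each median, beside a box for all 7081 detected genes (box, quartiles; whiskers, 5th and 95th percentiles). Medians run from -0.105 for HECT to -0.025 for MARCH, against -0.035 for all genes, and dotted and dashed lines mark 0.322 log2 units and 1.5-fold.

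TRIM genes of innate immunity, a group also chosen with the values known, showed small differences. Of 11 measured, 9 were detected and 0 passed 0.322. After centring all 9 were negative, as were 59.4% of all detected genes, with a median of -0.165 and a range from -0.235 to -0.035. In the values as deposited 8 were negative and 1, TRIM65, was equal on both arrays. All 8 detected TRIM genes with positive centred differences, TRIM8 and TRIM62 among them, were left outside the group. The shared sign therefore depends on which TRIM genes were placed in it. TRIM5, which recognises retroviral capsids, read 7.72 in miR-95 cells and 7.92 in control cells. TRIM21, a cytosolic antibody receptor, read 7.66 against 7.85. TRIM38, a brake on Toll-like receptor signalling, read 9.46 against 9.66, and TRIM4, which acts on the RNA sensor RIG-I, read 9.15 against 9.35. TRIM26 was at -0.165 and TRIM56 at -0.115. TRIM25, the better known RIG-I ligase, read 11.10 and 11.14 (-0.075), and TRIM14, which has no RING, read 8.81 and 8.82. TRIM22 and TRIM69 were below the detection rule, at 4.85 and 4.91 for TRIM22 and 6.88 and 6.95 for TRIM69. Each of these differences is within 2 of the 0.132 spreads between probe sets of 1 gene.

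Promoter windows of 250 bases before to 50 after the transcript start were taken from RefSeq, GRCh38.p14, for the 135 members that matched. They were searched on both strands for GAAANNGAAA, the paired core of the interferon-stimulated response element. It occurred in 11 of the 194 ligase windows (5.67%) and in 3.57% of all 35116 windows of the same length. The 7 detected TRIM genes that hold it (TRIM2, TRIM5, TRIM14, TRIM16, TRIM21, TRIM26 and TRIM44) all had negative differences, with a median of -0.165. The 14 detected TRIM genes with windows that lack it had a median of -0.11, with 10 negative. Over all detected genes the medians were -0.065 for 195 genes with the motif and -0.035 for 5651 without, and 62.6% and 60.0% were negative. None of the matches overlapped the E2F motifs searched beside it. Those were TTTCCCGC, TTTGGCGC, TTTCGCGC and TTTGCCGC, which occurred in 9 ligase windows (4.64%) and in 3.31% of all windows. The 3 detected TRIM genes with an E2F motif (TRIM26, TRIM37 and TRIM44) were all negative, with a median of -0.165. TRIM26 and TRIM44 are also among the 7 with GAAANNGAAA, and TRIM26 is the median gene of both groups. The 2 groups are therefore not separate. All 415 detected genes with an E2F motif had a median of -0.065. A match of letters is not evidence of a bound site. The windows of TRIM21 and TRIM5, among the lower TRIM genes, and of TRIM62, the highest, show what was matched. They lie on the minus strand at chr11:4393653-4393952, chr11:5685025-5685324 and chr1:33181994-33182293 and are given 5′ to 3′ on the gene's strand, with the motif in capitals. TRIM21 holds 2 overlapping copies just after the start, TRIM5 holds 1 on the opposite strand just before it, and neither of the 2 TRIM62 windows, of which 1 is shown, holds any. The 3 genes were chosen with their values known and do not stand for the TRIM genes as a set. TRIM59 (-0.545), TRIM33 (-0.245), TRIM38 and TRIM4 (-0.235 each) had no match, through lack of the motif or of a window. TRIM14 (-0.045) and TRIM16 (-0.065), both near 0, hold it.
TRIM21: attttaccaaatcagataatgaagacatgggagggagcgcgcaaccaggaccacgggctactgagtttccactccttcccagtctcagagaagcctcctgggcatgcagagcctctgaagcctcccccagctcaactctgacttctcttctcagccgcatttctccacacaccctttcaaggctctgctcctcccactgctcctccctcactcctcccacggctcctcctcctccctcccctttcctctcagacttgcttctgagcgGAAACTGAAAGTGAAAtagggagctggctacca
TRIM5: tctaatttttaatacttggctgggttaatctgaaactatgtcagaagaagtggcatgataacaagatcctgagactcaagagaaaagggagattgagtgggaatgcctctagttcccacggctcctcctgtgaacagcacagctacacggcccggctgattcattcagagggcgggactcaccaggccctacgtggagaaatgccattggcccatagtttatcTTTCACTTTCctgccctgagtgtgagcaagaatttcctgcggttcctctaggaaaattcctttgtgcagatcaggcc
TRIM62: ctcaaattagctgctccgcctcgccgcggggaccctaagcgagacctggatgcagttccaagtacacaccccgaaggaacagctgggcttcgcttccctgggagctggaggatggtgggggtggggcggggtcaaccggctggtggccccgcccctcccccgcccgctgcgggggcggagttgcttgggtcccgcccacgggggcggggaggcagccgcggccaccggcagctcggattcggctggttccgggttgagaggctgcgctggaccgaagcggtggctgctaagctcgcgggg

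HECT ligases had the lowest class median, -0.105 over 9 detected genes, with 7 negative and 2 positive (6 and 3 in the values as deposited). Of all detected genes 59.4% were negative, or 48.0% as deposited, and 9 genes are too few to set against those shares. Long genes lay lower on these arrays. The HECT genes had a median genomic span of 179408 bases, against 29367 for all detected genes, and the longest 25% of all detected genes had a median difference of -0.075. The part of gene length in the HECT median was not tested. Of the NEDD4 family, WWP1 read 10.99 in miR-95 cells and 11.13 in control cells (-0.175) and WWP2 read 8.38 and 8.37 (-0.025), beside ITCH at -0.325. WWP2 turned positive, at 0.01, in the values as deposited. NDFIP1 and NDFIP2, the membrane adaptors that activate ITCH, were both at -0.125 (9.37 against 9.46, and 10.69 against 10.78). The arrestin-related adaptors of the same family spread more widely, from ARRDC3 at -0.265 to ARRDC1 at 0.305.

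HERC3 stands beside HERC5 and HERC6 in RefSeq gene order, and all 3 were lower in miR-95 cells, as deposited and after centring, quantile normalization or loess. HERC5, the ligase for the ubiquitin-like protein ISG15, read 7.75 against 7.94 (-0.225), and HERC6 read 8.46 against 8.69 (-0.265). HERC5 and HERC6 are interferon-induced and are not members by the symbol rule. The next detected genes on the other side of HERC3, PDLIM5 and TSPAN5, were also negative, at -0.135 and -0.165. So were 59.4% of all detected genes. Genes not detected or not named on the arrays were passed over in this order, and distances were not measured. The other HERC genes were flatter. The giant ligases HERC1 (8.64 and 8.59) and HERC2, a factor of the DNA damage response (8.73 and 8.75), were at 0.015 and -0.055, and HERC4 was at -0.105. HECTD3 was at -0.175 and HECTD4 at 0.005.

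**Figure D4:**
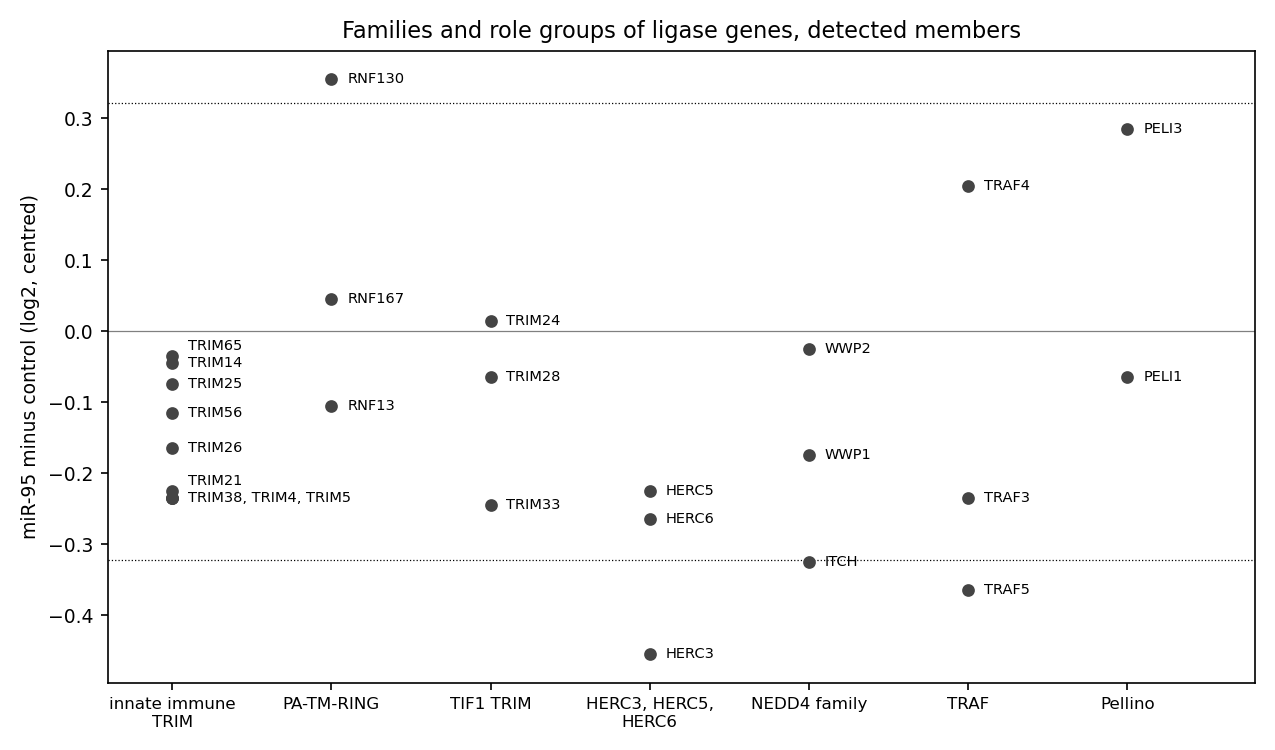
Differences (miR-95 minus control, log2, centred) of detected genes in 7 families or role groups, chosen with the values known, 1 point per gene. Of the HERC genes only HERC3 is drawn, with its neighbours HERC5 and HERC6. HERC1 (0.015), HERC2 (-0.055) and HERC4 (-0.105) were detected but are not shown. The innate immune TRIM genes lie between -0.235 and -0.035, while the PA-TM-RING, TRAF and Pellino genes lie on both sides of 0. Dotted lines mark 0.322 log2 units.

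All 5 UBR genes were detected and all were close between the arrays. The readers of amino-terminal residues UBR1 (10.59 and 10.52), UBR2 (10.79 and 10.83) and UBR4 (9.86 on both) were at 0.035, -0.075 and -0.035. UBR3 was at -0.095. UBR7, a histone ligase with a PHD finger, was lowest at 10.66 in miR-95 cells against 10.80 in control cells (-0.175). Of the MARCH genes, MARCHF5, a ligase of the mitochondrial outer membrane, read 10.90 against 11.05 (-0.185), and MARCHF9, which removes surface proteins, read 8.19 against 8.02 (0.135).

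The remaining RING families held 8 detected genes with a median of -0.075. TRAF3, which restrains noncanonical NF-kB signalling, read 8.72 in miR-95 cells and 8.92 in control cells (1.18-fold lower), and with TRAF5 made 2 TRAF genes that were lower. TRAF4 was on the other side, at 7.80 against 7.56 (1.15-fold higher). The Pellino ligases, which act on IRAK kinases, also split, with PELI3 at 8.45 against 8.13 (1.22-fold higher) and PELI1 at 8.64 against 8.67. SIAH2, which turns over the prolyl hydroxylases that sense oxygen, read 10.92 and 10.87, and SIAH1 read 7.35 on both arrays, below the detection rule. MDM4, the p53 inhibitor that pairs with MDM2, read 9.05 and 9.10 in these cells without functional p53.

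Partners of these ligases were read from a list of 45 adaptors, substrates and regulators, chosen with earlier results known. Of its 23 detected members, 0 passed 1.5-fold either way. Past 0.322 log2 units 2 were higher and 1 was lower (13.0% together, against 8.46% of all detected genes), and the median was -0.015. The lower gene was UBE2N, the E2 enzyme that builds K63-linked chains with TRAF and Pellino ligases. It read 7.07 in miR-95 cells, below that array's median, and 7.54 in control cells (1.42-fold lower). UBE2N thus passed the detection rule through the control array alone, and the 13.0% rests in part on that rule. Its cofactor UBE2V1 was level at 12.24 and 12.29. The higher genes were TAB3, a K63 chain reader that activates the kinase TAK1, at 10.23 against 9.69 (1.42-fold higher), and SPRY2, a partner of CBL, at 9.61 against 9.23 (1.27-fold higher). CYLD, which removes K63 chains, was at 0.205. TAB2, the other chain reader of this kind, was at -0.095, and the receptors EGFR and MET, both CBL substrates, were at 0.135 and -0.055.

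Ligases outside the symbol rule gave 1 gene past 1.5-fold. Of 78 further ligases and ligase partners listed, 54 were measured and 45 detected, with 0 higher and 1 lower past 1.5-fold (2.22%, against 1.26% of all detected genes) and a median of -0.065, the same as for the members. The 1 gene was UBE4B, a U-box ligase that extends ubiquitin chains, at 9.63 in miR-95 cells against 10.35 in control cells (1.69-fold lower). UBE3D was next at 7.69 against 8.22 (1.48-fold lower), and MID1, a TRIM family ligase of microtubules, read 9.53 against 9.82 (-0.325). The highest was SMURF1, a NEDD4 family ligase of the BMP pathway, at 10.33 against 10.02 (1.21-fold higher), followed by MIB2 and LTN1 at 0.205 each. Upstream of all ligases, the E1 enzymes UBA1 (12.21 and 12.24) and UBA6 (11.31 and 11.36) and the ubiquitin gene UBB (8.10 on both) were within 0.085 of 0.

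Over the 101 detected ligases the difference declined slightly with genomic span (Spearman's rho = -0.178, Pearson's r = -0.186 with log10 span), and over all 7081 detected genes rho was -0.238. These are correlations across genes of 2 arrays, where genes are not independent replicates. The 34 ligases among the longest 25% of detected genes had a median of -0.085, against -0.075 for all genes of that length. The 18 among the shortest 25% had a median of -0.035, against 0.015.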

How the data were processed

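Total RNA of 1 miR-95 and 1 control PC3 culture was hybridised to 1 Affymetrix gene array each. The deposited values are on a log2 scale, read from their range (1.79 to 13.84), and were made by the authors with Affymetrix Expression Console 1.2, per the submitters' processing notes. Not given in the sources used here were the summarisation, background correction, scaling and genome build. Column medians were 7.16 (miR-95) and 7.15 (control), and a shift shared by all transcripts would not show.

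Of 23641 probe sets, 14088 carry 1 symbol, 0 several and 9553 none in the platform annotation, and all 14088 matched RefSeq by Entrez identifier. Genes with several probe sets took the mean of their log2 values, and arrays were centred on the median over genes. The larger limit was 1.5-fold and the smaller 0.322 log2 units (5 to 4 as a ratio). The members, lists, role groups and promoter motifs were chosen with earlier results of these data known. Genes were named by a rule: members past 1.5-fold, the 3 highest and 3 lowest of each class (2 in classes with fewer than 10 detected, ties included), the brightest of each, and 15 fixed names, 5 of which were measured. Members of role groups and listed partners named beside these were chosen after their values were seen. No test across replicates could be made with 1 array per group, and the number of arrays limits the precision. The counting step was tested on simulated data with changes of 1 log2 unit. That is more than any detected ligase showed (-0.545 to 0.355), so the test does not bear on the differences reported here. Python 3.11.15, pandas 2.3.3, statsmodels 0.14.6 and matplotlib 3.10.9 were used. Alternatives were quantile, loess (span 0.4) or no centring, other detection limits, other treatment of probe sets and leaving out the 12 members picked out by symbol as not ligases.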

Additional observations from a re-analysis of the deposited data

How the results depend on the processing

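The counts turned on the filter for dim genes and, at the smaller limit, on the scaling. As deposited and after quantile normalization or loess, 3 ligases were higher and 3 were lower past 0.322: ITCH lost its call (-0.29, -0.28 and -0.29) and RNF216P1 gained one (0.35, 0.335 and 0.332). ITCH also lost it, at -0.32, when genes with several probe sets were read by the brightest or each was counted. With no filter 1 ligase was higher and 1 was lower past 1.5-fold, and 6 were higher and 6 lower past 0.322 log2 units. With detection at the 25th percentile 1 was higher past 1.5-fold and 5 past 0.322. With detection at the 75th percentile 0 were higher and 1, ITCH, was lower past 0.322. The ligase median of -0.065 became -0.03 as deposited, -0.03 after quantile normalization, -0.031 after loess, and -0.035 with no filter or the 25th percentile. The median of all detected genes became 0 as deposited, 0 after quantile normalization and -0.0034 after loess. The gap between both medians, -0.03, was -0.01 with no filter or the 25th percentile and moved by at most 0.01 otherwise. Class medians ranged from -0.175 to -0.055 (HECT), -0.085 to -0.045 (TRIM), -0.075 to -0.03 (UBR), -0.075 to 0.015 (other RING families), -0.185 to 0.01 (MARCH) and -0.035 to 0.0017 (RNF). Of 38 named genes, 36 kept their sign under 10 alternative settings and 1 chosen after seeing the data, which also left out noncoding members. For RNF216P1, itself left out in 2 of these, 9 were run. The exceptions were SIAH1 and UBR4, both equal on the 2 arrays as deposited. Most of these settings could not change a sign. A gene's difference does not depend on the detection limit or on which members are left out. With 1 probe set per member, the treatment of probe sets moved only the centring. Only the change of scaling could move single genes further, so the kept signs speak to scaling alone. No paired analysis was possible because each group holds 1 array.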

Other observations

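The 69 members below the detection rule had values from 2.80 to 7.42 in miR-95 cells and from 2.73 to 7.41 in control cells. They included all 3 muscle TRIM genes measured (TRIM54, TRIM55 and TRIM72) and all 8 members of the tandem TRIM43, TRIM48, TRIM49 and TRIM64 groups, whose copies are near-identical and whose readings are uncertain for that reason. Past 1.5-fold lay 1 gene each way. SIAH3 read 5.99 in miR-95 cells and 5.24 in control cells (1.64-fold higher). RNF133, a testis ligase, read 2.80 and 3.46 (1.62-fold lower), close to the bottom of the scale. TRIM55, at 5.17 and 5.55, was at -0.415. TRIM7, at 6.74 and 6.34, and RNF113B, at 6.40 and 5.97, were at 0.365 and 0.395. TRIM29, a RING-less TRIM of stratified epithelium, was at 5.37 and 5.63.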
